A study of Homo sapiens with 9 samples.

Results

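CHAC1 and 9 regulators or targets around the transcription factor ATF4, all genes of the integrated stress response, were followed across the 9 RNA sequencing libraries of a degron experiment in HEK293T cells. The 9 are ATF4, ATF3, ATF5, DDIT3, TRIB3, CEBPB, CEBPG, PPP1R15A and ASNS. They were picked by name as transcription factors, feedback regulators and marker targets of that response, and all 10 were found among the 58735 genes listed. The choice was made with the values of these genes against DMSO known, CHAC1 above all, so those values are given as a description and support nothing further.

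The integrated stress response starts when one of several kinases phosphorylates the translation initiation factor eIF2. General protein synthesis then falls, while the ATF4 message, which carries upstream open reading frames, is translated better. ATF4 protein pairs with C/EBP and other bZIP factors and switches on genes for amino acid supply, for glutathione breakdown and for the feedback that turns the response off. ATF4 messenger RNA, which is what was counted here, therefore does not measure ATF4 protein.

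HEK293T is a human embryonic kidney line, and every group carried the same 2 tagged genes. PRPS1 bears a dTAG degron with an HA epitope. PRPSAP1 bears a BromoTag degron and, per the sample titles only, a V5 epitope. PRPS1 makes phosphoribosyl pyrophosphate, the sugar donor for nucleotide synthesis, and PRPSAP1 is a protein that associates with it. Cells received 500 nM dTAG47, which brings the ubiquitin ligase receptor CRBN to the dTAG to deplete PRPS1 (3 libraries), or 500 nM AGB1, which brings VHL to the BromoTag to deplete PRPSAP1 (3 libraries), or DMSO (3 libraries), in each case for 24 h. What the tags do by themselves is common to all 3 groups. The untagged parent line was not analysed here, with or without the compounds. Effects of a compound that do not need its tag therefore cannot be told apart from depletion of the tagged protein. Whether the line is 1 clone, and whether replicate libraries stem from different cultures, is not in the labels. P-values therefore reflect library-to-library spread alone, which could be technical.

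Short promoter sites of 5 of the 10 genes are shown because they hold the letters through which ATF4 and its partners are known to act. The windows were RefSeq promoter windows of GRCh38.p14, in all 20 for the 10 genes, and both strands were searched. Each window began 250 bases before a RefSeq start and ended shortly after it, and sites outside were not searched. The C/EBP-ATF response element was searched as TGATGNAA, where N is any base, and the cAMP response element as TGACGTCA, which reads alike on both strands. Capitals mark the match, each sequence runs 5′ to 3′ on the strand of its gene, and in CHAC1 the match is read from the opposite strand. No gene held both motifs within these windows.
CHAC1: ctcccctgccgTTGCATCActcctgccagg
ASNS: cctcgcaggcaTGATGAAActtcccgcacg
ATF3: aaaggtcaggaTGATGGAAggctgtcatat
CEBPG: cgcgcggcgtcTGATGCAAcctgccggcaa
PPP1R15A: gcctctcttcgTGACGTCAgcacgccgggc

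The CHAC1 stretch is at chr15:40953251-40953280 (plus strand), with the match at −209 to −202 from the RefSeq start. The ASNS stretch is at chr7:97872458-97872487 (minus strand), with the match at −68 to −61. Both of these lie inside GENCODE exons of their own gene, because the GENCODE models start further upstream. The ATF3 stretch is at chr1:212565205-212565234 (plus strand), with the match at −191 to −184. The CEBPG stretch is at chr19:33374060-33374089 (plus strand), with the match at −42 to −35. The PPP1R15A stretch is at chr19:48872352-48872381 (plus strand), with the cAMP response element at −58 to −51. TGATGNAA was found for 4 of the 10 genes, and for 1217 of 27305 genes (4.46%) over all RefSeq windows. Counted by window, it was in 4 of 20 windows of these genes and in 3.62% of all windows. TGACGTCA was found for 1 of the 10 genes and for 614 of all 27305 genes (2.25%). A match is a run of letters, not a measured binding site, and these data hold no binding measurement.

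Counts per library totalled between 27964128 and 44803380, and 18319 genes, all 10 of these among them, passed the filter on low counts. Levels are given in CPM, the count scaled to a common library size with TMM factors, and fold changes come from 1 edgeR quasi-likelihood model over the 9 libraries, with Benjamini-Hochberg adjustment over the 18319 genes and a threshold of 0.05. Deviations from the gene mean followed transcript GC content to differing degrees, with a Spearman's rho across genes of 0.625, −0.330 and 0.0288 in dTAG47 libraries 1 to 3, −0.00623, −0.0271 and 0.04996 in AGB1 libraries 1 to 3, and −0.379, −0.282 and 0.272 in DMSO libraries 1 to 3. A positive rho means that GC-rich genes stood higher in that library. By the longest transcript, GC content was 66.2% for CEBPB, 62.6% for CHAC1, 60.9% for TRIB3, 60.0% for ATF5 and 58.8% for PPP1R15A. It was 56.7% for ATF4, 49.7% for DDIT3, 47.0% for ASNS, 46.7% for ATF3 and 43.9% for CEBPG. The transcripts of the tagged genes differed little from DMSO, PRPS1 by a log2 fold change of 0.09 with dTAG47 and 0.08 with AGB1 and PRPSAP1 by 0.01 with dTAG47 and −0.02 with AGB1. The compounds act on the proteins, so this does not check the depletion. The label calls the cells epithelial. Of the 5 epithelial markers KRT8, KRT18, CDH1 and EPCAM were detected in every group. The list summed to 82.8 to 95.9 CPM with dTAG47, 87.7 to 96.0 CPM with AGB1 and 93.1 to 100.2 CPM in DMSO. Most of this was KRT18 and KRT8 (means 52.3 and 33.3 CPM in DMSO), while CDH1 and EPCAM were low (8.21 and 2.24 CPM in DMSO). KRT19 was near 0 throughout, with 0 counts in DMSO and a mean of 0.032 CPM with either compound. The 14 markers of other cell types summed to 30.8 to 39.5 CPM with dTAG47, 27.5 to 30.6 CPM with AGB1 and 31.3 to 35.0 CPM in DMSO. Most of that sum was COL1A1, and PTPRC, which marks blood cells, had 0 counts with dTAG47 and in DMSO. Fewer cells of a type and less RNA per cell cannot be told apart in such bulk libraries.

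CHAC1 was higher with either compound than in DMSO, and it was the only one of the 10 genes past the threshold in either comparison with DMSO. CHAC1 encodes a γ-glutamylcyclotransferase that breaks down glutathione and is a known ATF4 target (ENSG00000128965, GRCh38 chromosome 15, 40952962 to 40956519, plus strand). It stood at 12.4, 10.3 and 12.4 CPM in dTAG47 libraries 1 to 3, at 10.3, 12.03 and 13.2 CPM in AGB1 libraries 1 to 3, and at 5.30, 7.60 and 7.15 CPM in DMSO libraries 1 to 3. All 6 libraries of compound-treated cells were above all 3 DMSO libraries, and DMSO 1 was the lowest. The values rest on 386 to 461 counts with dTAG47, 336 to 409 with AGB1 and 175 to 267 in DMSO. The mean was 11.7 ± 1.22 CPM with dTAG47, 11.9 ± 1.48 CPM with AGB1 and 6.68 ± 1.22 CPM in DMSO (SD, n = 3 each).

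The fitted difference of CHAC1 from DMSO was 0.80 on the log2 scale with dTAG47 (SE 0.16, 1.75-fold, edgeR adjusted p = 0.0330) and 0.82 with AGB1 (SE 0.16, 1.77-fold, edgeR adjusted p = 0.0207). Both comparisons use the same 3 DMSO libraries. CHAC1 is thus 1 of 10 genes called higher with dTAG47, where 0.0328% of all tested genes were, and 1 of 10 with AGB1, where 0.0546% were. None of the 10 was called lower, next to 0.0273% of all genes with dTAG47 and 0.0491% with AGB1. The size of the difference changed less over the alternatives than its p did. Without DMSO 1 the log2 fold change was 0.66 with dTAG47 (adjusted p = 0.175) and 0.69 with AGB1 (adjusted p = 0.122). The dTAG47 value was also no longer past the threshold without DMSO 2 (0.90, adjusted p = 0.0706), dTAG47 1 (0.76, adjusted p = 0.193), dTAG47 3 (0.76, adjusted p = 0.223) or AGB1 2 (0.80, adjusted p = 0.0536). The same held for the AGB1 value without AGB1 2 (0.81, adjusted p = 0.0922) or AGB1 3 (0.74, adjusted p = 0.228). Each of these fits also has 1 library fewer. Without both DMSO 1 and dTAG47 1, the libraries with the steepest positive and negative GC trends, the log2 fold change was 0.62 with dTAG47 (adjusted p = 0.278) and 0.68 with AGB1 (adjusted p = 0.0858). Under limma-voom the log2 fold change was 0.80 with dTAG47 (adjusted p = 0.0783) and 0.82 with AGB1 (adjusted p = 0.0566), and with the 2 groups fitted alone the dTAG47 value was 0.81 (adjusted p = 0.0917). Over all alternatives the adjusted p ran from 0.000695 to 0.278 with dTAG47 and from 0.000448 to 0.228 with AGB1, lowest without the count filter.

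**Figure D1:**
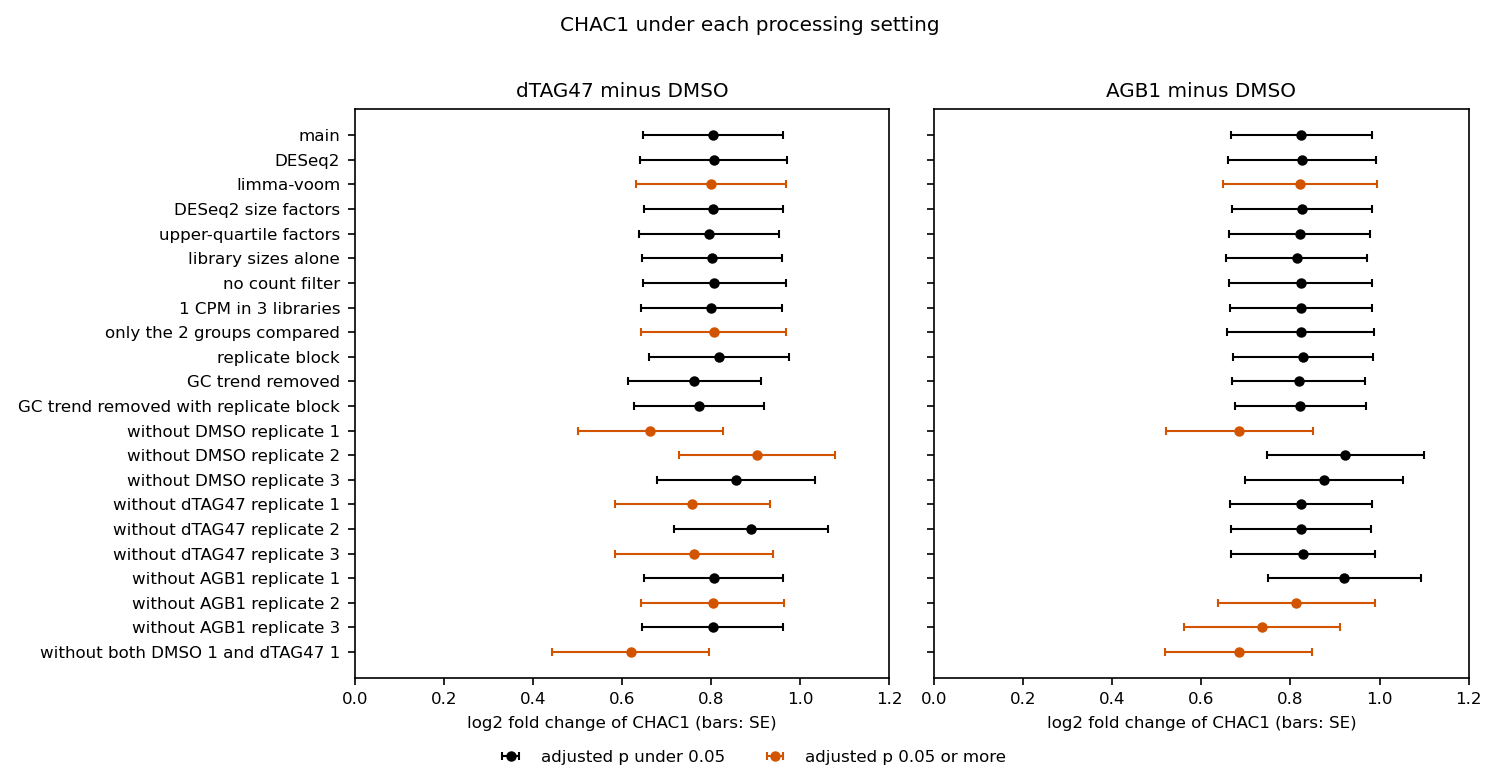
Log2 fold change of CHAC1 against DMSO (x axis, bars 1 SE) under each setting (y axis), with dTAG47 on the left and AGB1 on the right; black points are past the threshold, orange points are not. All points lie right of 0, between 0.62 and 0.90 with dTAG47 and between 0.68 and 0.92 with AGB1, while the colour changes when some single libraries are left out.

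Between the compounds CHAC1 did not separate: dTAG47 minus AGB1 was −0.02 on the log2 scale (95% interval −0.33 to 0.29, edgeR adjusted p = 0.999). The interval reaches well beyond the value on both sides, so the 2 treatments are not shown to act alike.

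Of the transcription factors, ATF4 and ATF3 lay slightly above DMSO with both compounds and neither passed the threshold. ATF4, the central factor of the response (ENSG00000128272, chromosome 22, 39519695 to 39522685, plus strand), had 1050.0, 1025 and 1024 CPM in dTAG47 libraries 1 to 3, 1067, 1075 and 1049.65 CPM in AGB1 libraries, and 924, 1002 and 996 CPM in DMSO libraries. Every library of compound-treated cells was above every DMSO library, but the distance from the highest DMSO library to the lowest dTAG47 library was small and DMSO 1 alone was far down. The log2 fold change was 0.08 with dTAG47 (SE 0.04, edgeR adjusted p = 0.684) and 0.13 with AGB1 (SE 0.04, edgeR adjusted p = 0.366). The 95% interval of ATF4 was narrow, from −0.0015 to 0.17 with dTAG47 and from 0.04 to 0.21 with AGB1. Of the 75-base words of its longest transcript, 10.1% also occur in other genes. Among these are the processed copies ATF4P3 (6.12% of the words) and ATF4P4 (5.14%). A small part of the ATF4 reads could therefore be assigned to other genes.

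ATF3, a bZIP factor induced early in many stress responses (ENSG00000162772, chromosome 1, 212565334 to 212620777, plus strand), had 61.4, 69.1 and 60.5 CPM in dTAG47 libraries, 71.5, 68.4 and 70.1 CPM in AGB1 libraries, and 57.3, 59.3 and 55.4 CPM in DMSO libraries. Neither compound's libraries overlapped with DMSO, and dTAG47 2 reached into the range of AGB1 while dTAG47 1 and 3 were just above DMSO. The log2 fold change was 0.15 with dTAG47 (SE 0.07, edgeR adjusted p = 0.681) and 0.29 with AGB1 (SE 0.07, edgeR adjusted p = 0.168). For AGB1, ATF3 passed the threshold under DESeq2 (adjusted p = 0.0182) and with the GC trend removed (edgeR adjusted p = 0.0436), but not with the GC trend removed and the replicate block together (edgeR adjusted p = 0.0514). Its adjusted p over the alternatives reached 0.550 without AGB1 1. Between the compounds it differed by −0.14 (dTAG47 minus AGB1, 95% interval −0.29 to 0.01, edgeR adjusted p = 0.999).

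ATF5, DDIT3, CEBPB and CEBPG overlapped between every pair of groups. ATF5, a relative of ATF4 that is also controlled through upstream reading frames (ENSG00000169136, chromosome 19, 49928702 to 49933935, plus strand), ranged from 24.9 to 29.4 CPM with dTAG47, from 23.4 to 28.6 CPM with AGB1 and from 24.9 to 26.5 CPM in DMSO. DDIT3, also called CHOP, a partner of C/EBP factors that is linked to stress-induced cell death (ENSG00000175197, chromosome 12, 57516588 to 57521737, minus strand), ranged from 6.12 to 7.15 CPM with dTAG47, from 5.61 to 7.98 CPM with AGB1 and from 5.30 to 7.32 CPM in DMSO. The DDIT3 ranges nearly coincided, on 170 to 274 counts per library. DDIT3 differed from DMSO by 0.08 on the log2 scale with dTAG47 (95% interval −0.28 to 0.45) and by 0.04 with AGB1 (95% interval −0.33 to 0.41), so a rise of the size seen for CHAC1 lay outside both intervals.

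CEBPB, a C/EBP factor that pairs with ATF4 and whose gene is also an ATF4 target (ENSG00000172216, chromosome 20, 50190734 to 50192689, plus strand), ranged from 25.0 to 30.1 CPM with dTAG47, from 27.0 to 30.7 CPM with AGB1 and from 22.3 to 28.3 CPM in DMSO. Its lowest library was DMSO 1. CEBPG, a C/EBP factor that forms dimers with ATF4 (ENSG00000153879, chromosome 19, 33373330 to 33382686, plus strand), ranged from 131 to 147 CPM with dTAG47, from 131 to 143 CPM with AGB1 and from 128 to 134 CPM in DMSO. The log2 fold changes of ATF5, CEBPB and CEBPG were 0.09, 0.07 and 0.07 with dTAG47 and 0.01, 0.17 and 0.08 with AGB1, with edgeR adjusted p-values from 0.726 to 0.995.

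**Figure D2:**
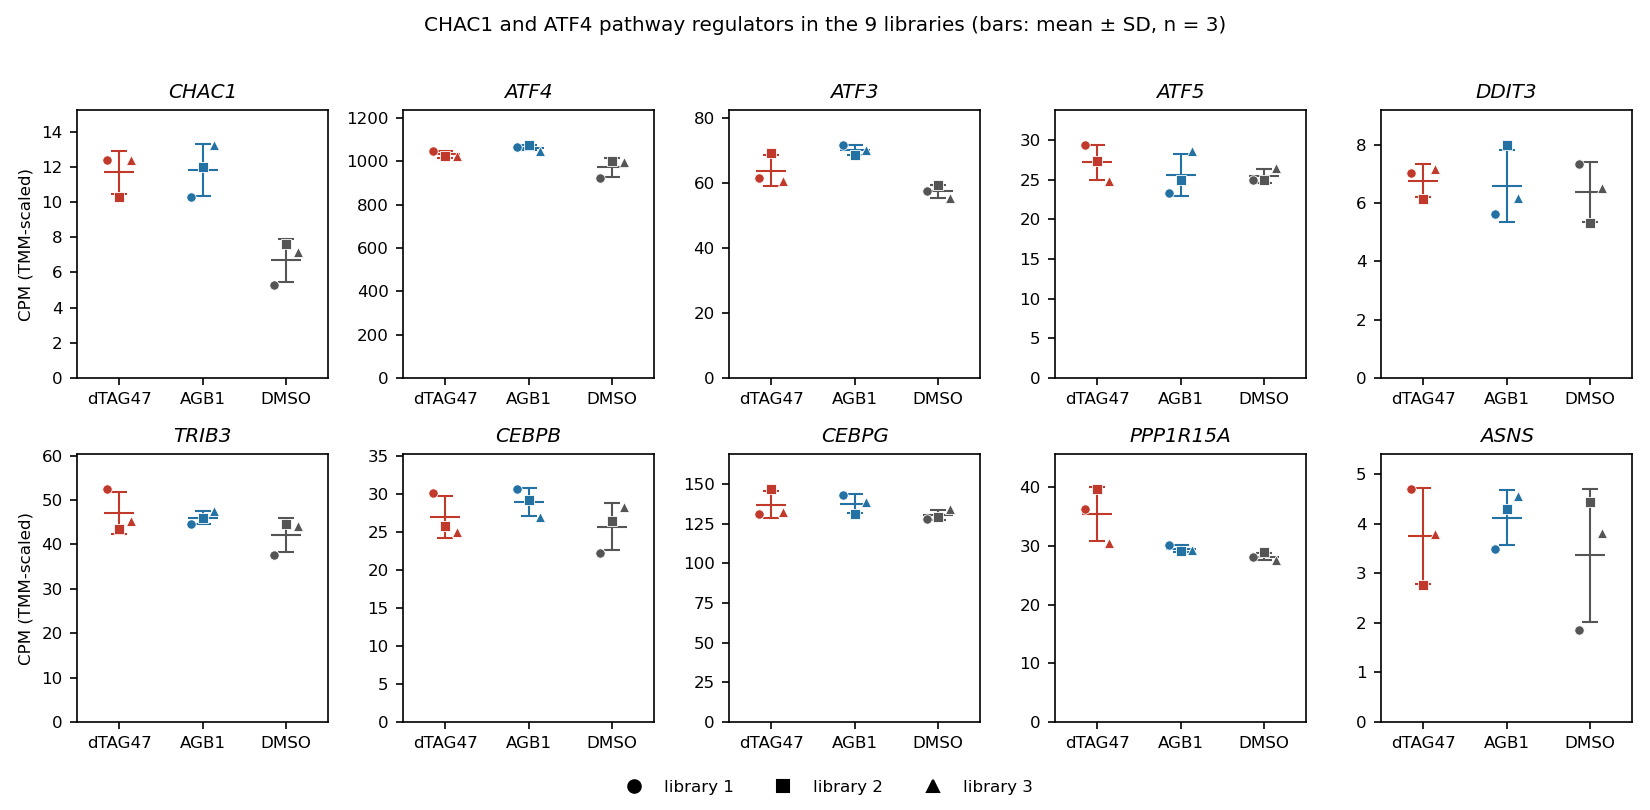
CPM (y axis, from 0, own scale per gene) of the 10 genes in the 9 libraries, with dTAG47, AGB1 and DMSO side by side; symbols give the library number and bars the mean ± SD of 3 libraries. CHAC1 is the panel with a wide gap (mean 11.7 CPM with dTAG47, 11.9 with AGB1, 6.68 in DMSO), while DDIT3 is level (6.76 CPM with dTAG47, 6.59 with AGB1, 6.38 in DMSO).

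Neither feedback regulator passed the threshold. PPP1R15A, also called GADD34, which directs a phosphatase to eIF2 and so ends the response (ENSG00000087074, chromosome 19, 48872392 to 48876057, plus strand), had 36.3, 39.6 and 30.5 CPM in dTAG47 libraries, 30.2, 29.1 and 29.4 CPM in AGB1 libraries, and 28.03, 28.9 and 27.6 CPM in DMSO libraries. The dTAG47 libraries were above all others, dTAG47 3 only just, and the AGB1 libraries lay narrowly above DMSO. Its log2 fold change was 0.33 with dTAG47 (SE 0.10, edgeR adjusted p = 0.309) and 0.07 with AGB1 (SE 0.10, edgeR adjusted p = 0.910). Between the compounds PPP1R15A had the widest difference of the 10 genes, 0.27 for dTAG47 minus AGB1 (SE 0.10, 95% interval 0.07 to 0.46). The unadjusted p was 0.0101, where 4.02% of all tested genes had one under 0.05, and the edgeR adjusted p was 0.999, so the difference did not pass the threshold.

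TRIB3, a pseudokinase that binds ATF4 and holds it back (ENSG00000101255, chromosome 20, 362835 to 397559, plus strand), had 52.4, 43.5 and 45.2 CPM in dTAG47 libraries, 44.6, 45.9 and 47.6 CPM in AGB1 libraries, and 37.7, 44.6 and 44.1 CPM in DMSO libraries. The AGB1 libraries were barely above DMSO (44.58 against 44.57 CPM at the closest), dTAG47 2 was within the DMSO range, and DMSO 1 and dTAG47 1 were the lowest and the highest library. The log2 fold change was 0.16 with dTAG47 (SE 0.09, edgeR adjusted p = 0.727) and 0.13 with AGB1 (SE 0.09, edgeR adjusted p = 0.780).

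ASNS, asparagine synthetase, a marker target of ATF4 (ENSG00000070669, chromosome 7, 97852118 to 97872542, minus strand), had 4.69, 2.77 and 3.78 CPM in dTAG47 libraries, 3.50, 4.30 and 4.56 CPM in AGB1 libraries, and 1.85, 4.43 and 3.80 CPM in DMSO libraries. All groups overlapped and DMSO 1 was the lowest library. ASNS differed from DMSO by 0.15 on the log2 scale with dTAG47 (95% interval −0.39 to 0.69) and by 0.29 with AGB1 (95% interval −0.25 to 0.83), the widest intervals of the 10 genes.

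Most coding bases of ASNS are shared with another gene. In the annotation that the files match, 96.1% of its coding bases (1683 of 1752) and 44.6% of all its exonic bases also belong to exons of AC079781.5, a longer gene on the same strand, which leaves 69 coding bases to ASNS alone. AC079781.5 itself had 2 to 30 counts per library. By share of all exonic bases, ASNS falls among the 1473 protein-coding genes that have above 0 and up to 50% under other genes on the same strand only. These had a median level of 1.65 CPM per kb, and 27.2% of them were below 0.1 CPM per kb, where ASNS itself was above 0.1. Those with above 50 and up to 90% (285 genes) had a median of 0.0246 CPM per kb. Those with more than 90% of exonic bases under other genes on the same strand (356 genes, no overlap on the other strand) had a median of 0 CPM per kb, and 99.2% of them were below 0.1. Protein-coding genes with no overlap (11097 genes) had a median of 1.17 CPM per kb, and 36.2% of them were below 0.1. Genes were not grouped by the share of coding bases, which is where the overlap of ASNS is high. How the counting treated reads in 2 genes is not given in the sources used here, and the part of shared exons in the level of ASNS was not tested.

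**Figure D3:**
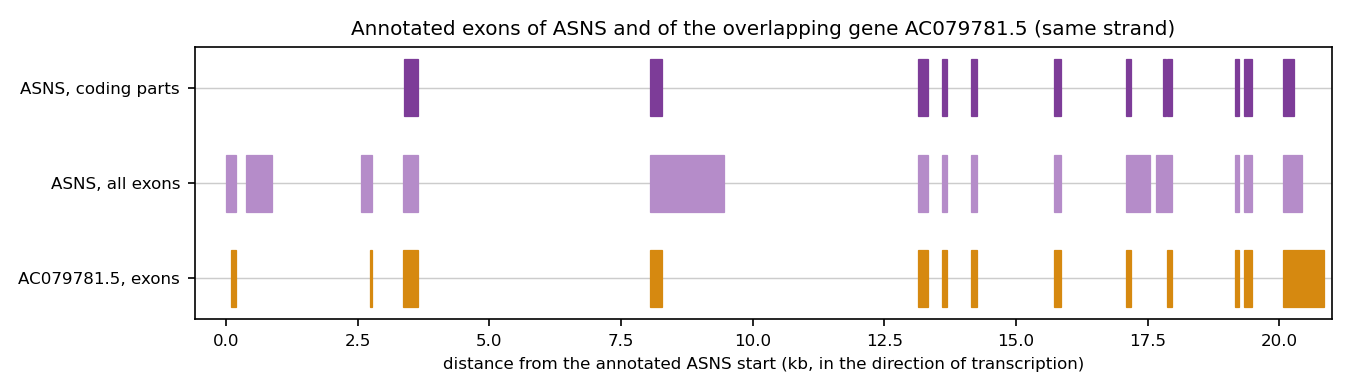
Exons of ASNS and of AC079781.5 by distance from the annotated ASNS start (x axis, kb, in the direction of transcription); rows show the coding parts of ASNS, all ASNS exons and the AC079781.5 exons. Nearly every coding block of ASNS has an AC079781.5 exon under it (96.1% of coding bases), while the wide exon parts without one are non-coding.

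Overlaps were smaller for the other genes. Of the exonic bases of DDIT3, 39.6% are also in other genes, mainly MARS on the other strand (27.2%), of ATF5 23.7%, mainly NUP62 on the other strand (21.2%), and of CEBPB 11.8%, all CEBPB-AS1 on the other strand. Without the strand setting, reads of DDIT3 and MARS in the shared stretch cannot be told apart. CHAC1, ATF3, TRIB3, CEBPG and PPP1R15A share no exonic base with another gene and no 75-base word of their longest transcript.

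By counts per length, ATF4 was by far the highest of the 10 genes and ASNS the lowest. Mean levels of ATF4 were 411 CPM per kb with dTAG47, 423 with AGB1 and 387 in DMSO, and CEBPG came next with 31.1 CPM per kb with dTAG47, 31.2 with AGB1 and 29.6 in DMSO. ATF3, CEBPB and TRIB3 followed at 14.2, 13.1 and 12.3 CPM per kb in DMSO, where neighbours in this order overlapped between libraries. With AGB1, ATF3 (17.3 CPM per kb) stood clear of CEBPB (14.8 CPM per kb). PPP1R15A and ATF5 overlapped in every group, at 9.11 and 8.62 CPM per kb in DMSO. CHAC1 had 5.68 CPM per kb with dTAG47, 5.76 with AGB1 and 3.25 in DMSO, and DDIT3 had 5.18 with dTAG47, 5.04 with AGB1 and 4.88 in DMSO. The order of the last pair therefore differed: CHAC1 was above DDIT3 with overlap between libraries in compound-treated cells, and below it without overlap in DMSO. When only bases in no other gene are taken as the length, DDIT3 had 8.57 CPM per kb with dTAG47, 8.35 with AGB1 and 8.08 in DMSO and stood above CHAC1 in all groups, so the order depends on how shared bases are treated. ASNS had 0.841 CPM per kb with dTAG47, 0.924 with AGB1 and 0.754 in DMSO over all exons. Over bases in no other gene ASNS had 1.52 CPM per kb with dTAG47, 1.67 with AGB1 and 1.36 in DMSO, again the lowest. Of these 2470 bases only 69 are coding. Of the 75-base words of the longest ASNS transcript, 80.7% also occur in AC079781.5. Counts were not split by shared and unshared bases, so this does not check the level without the overlap. The part of the shared exons in this low place was not tested.

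**Figure D4:**
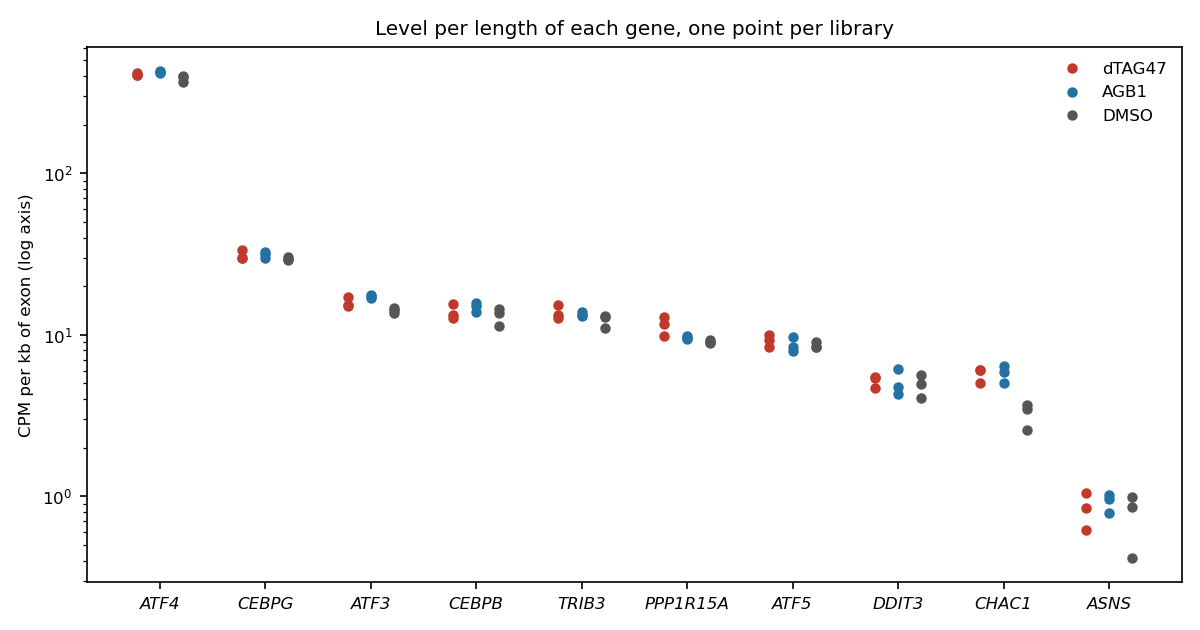
Level per length (y axis, CPM per kb of exon, log axis) of the 10 genes (x axis), 1 point per library, with dTAG47, AGB1 and DMSO from left to right within each gene. The genes span from ATF4 (387 CPM per kb in DMSO) to ASNS (0.754 CPM per kb in DMSO), and CHAC1 is the gene whose DMSO points sit well below those of both compounds.

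As a group, all 10 genes had a positive log2 fold change against DMSO with dTAG47 and with AGB1, next to 49.7% of all tested genes in each comparison. The signs of the small values depended on single libraries. Without DMSO 1 the value with dTAG47 was −0.02 for CEBPB and −0.14 for ASNS, and without dTAG47 1 it was −0.02 for CEBPB and −0.04 for ASNS. DDIT3 was negative without DMSO 2 with either compound (−0.04 with dTAG47, −0.07 with AGB1) and without AGB1 2 with AGB1 (−0.12). ATF5 with AGB1 was negative under 8 of 21 alternatives, at −0.08 to −0.0030. The median over the 10 genes was 0.12 with dTAG47 and 0.13 with AGB1, next to −0.00097 over all genes with dTAG47 and −0.00092 with AGB1. With dTAG47, the libraries of 4 genes (CHAC1, ATF4, ATF3 and PPP1R15A) lay above DMSO without overlap, next to 5.8% of all genes. With AGB1 this held for 5 genes (the same 4 and TRIB3), next to 6.56% of all genes. These counts share the 3 DMSO libraries and the choice of genes, and nothing is read from them. DMSO 1 was the lowest of the 9 libraries for 6 of the 10 genes (CHAC1, ATF4, TRIB3, CEBPB, CEBPG and ASNS) and for 15.7% of all genes. DMSO 2 was the lowest for DDIT3 and DMSO 3 for ATF3 and PPP1R15A. The part of the GC trend of DMSO 1 in these values was not tested beyond its removal and the leaving out of that library. With the trend removed the CHAC1 log2 fold change was 0.76 with dTAG47 and 0.82 with AGB1. For dTAG47, ATF4 went from 0.0847 to 0.0545, TRIB3 from 0.159 to 0.115 and CEBPB from 0.0691 to 0.0233. CEBPG went from 0.0705 to 0.0839 and ASNS from 0.153 to 0.156.

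The direct comparison of the compounds called none of the 10 genes. Over all genes edgeR called 0 of 18319 (0%), DESeq2 and limma-voom called 0 as well, and 736 genes (4.02%) had an unadjusted p under 0.05. Of the 10 genes, 4 were higher with dTAG47 (ATF5, DDIT3, TRIB3 and PPP1R15A) next to 50% of all genes, and 6 were lower, with a median of −0.01. PPP1R15A was the only one of the 10 without overlap between the compounds' libraries, next to 5.35% of all genes that were higher without overlap. The differences ran from −0.14 (ASNS, 95% interval −0.68 to 0.40) to 0.27 (PPP1R15A). The intervals of ATF4 (−0.13 to 0.04) and CEBPG (−0.13 to 0.12) were the tightest.

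**Figure D5:**
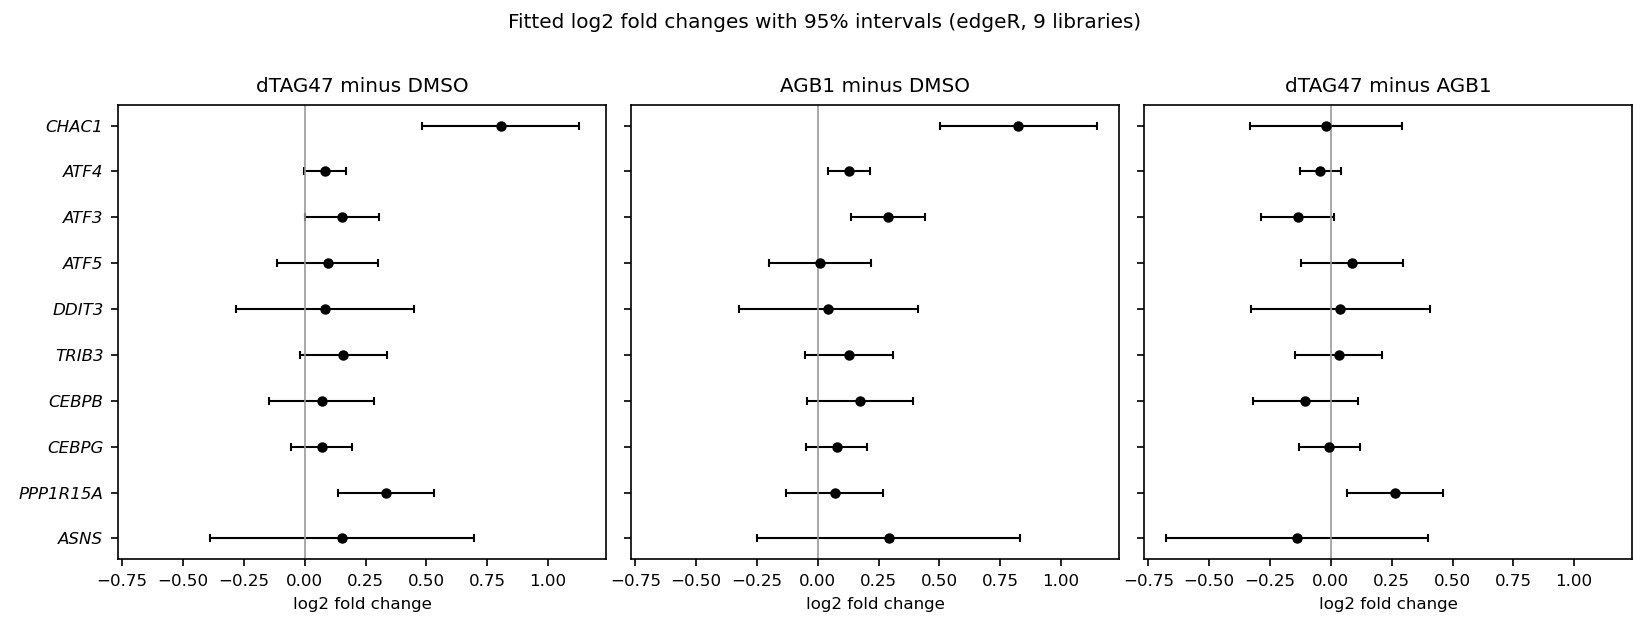
Log2 fold changes with 95% intervals (x axis) of the 10 genes (y axis) for dTAG47 against DMSO (left), AGB1 against DMSO (middle) and dTAG47 against AGB1 (right). CHAC1 stands apart in the first pair of panels (0.80 with dTAG47, 0.82 with AGB1) and lies at −0.02 in the third, where PPP1R15A (0.27) is farthest from 0.

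Genes upstream of ATF4 showed no called difference. Of 9 genes for eIF2 kinases and their regulators, activators and inhibitors alike, 5 were positive in each comparison with DMSO and 0 were called. Of all tested genes 49.7% were positive in each. Over all genes 0.06% were called in either direction with dTAG47 and 0.104% with AGB1. With dTAG47 the log2 fold changes of the 4 kinases were −0.03 for EIF2AK1 (HRI), −0.10 for EIF2AK2 (PKR), 0.01 for EIF2AK3 (PERK) and −0.04 for EIF2AK4 (GCN2). With AGB1 they were −0.05 for EIF2AK1, 0.02 for EIF2AK2, 0.02 for EIF2AK3 and 0.03 for EIF2AK4. GCN1, an activator of EIF2AK4, had 0.05 with dTAG47 and −0.0079 with AGB1, and DELE1, which relays mitochondrial stress to EIF2AK1, had 0.0026 with dTAG47 and 0.04 with AGB1. Between the compounds EIF2AK2 (−0.12), EIF2AK4 (−0.07) and GCN1 (0.06) had the smallest p of the list, with 0 called. These kinases are switched by activation of the protein, which transcript counts do not show. Of 12 genes for eIF2, eIF2B and the constitutive eIF2 phosphatase, 7 were positive with dTAG47 and 9 with AGB1, next to the same 49.7%, and 0 were called. PPP1CB, a catalytic subunit of that phosphatase, had −0.12 with dTAG47 and −0.15 with AGB1, its libraries below DMSO with both compounds. PPP1R15B, the constitutive counterpart of PPP1R15A, had 0.0035 with dTAG47 and 0.10 with AGB1. EIF2S3, a subunit of eIF2, had −0.05 with dTAG47 and 0.05 with AGB1. Of the eIF2B subunits, EIF2B5 had 0.06 with dTAG47 and 0.0026 with AGB1, and EIF2B3 had 0.06 with dTAG47 and 0.10 with AGB1. Between the compounds EIF2S3 (−0.10), PPP1R15B (−0.10) and the phosphatase subunit PPP1CC (−0.06) had the smallest p, with 0 called.

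Among 39 other known ATF4 targets, 38 were tested and FGF21 was too low. With dTAG47, 28 of the 38 were positive (49.7% over all tested genes) and 1 was called higher (0.0328% over all), with a median log2 fold change of 0.08. With AGB1, 30 were positive (49.7% over all) and 1 was called higher (0.0546% over all), with a median of 0.11. The 38 values ran from −0.43 to 0.29 with dTAG47, 10 of them negative, and from −0.43 to 0.37 with AGB1, 8 of them negative. SLC7A5, a carrier of large neutral amino acids, was the one called in both, at 0.28 with dTAG47 (SE 0.05, edgeR adjusted p = 0.0213) and 0.31 with AGB1 (SE 0.05, edgeR adjusted p = 0.00344). SESN2, a sestrin that restrains mTORC1, had 0.29 with dTAG47 (edgeR adjusted p = 0.0910) and 0.24 with AGB1 (edgeR adjusted p = 0.168). STC2, a secreted glycoprotein, had 0.13 with dTAG47 and 0.24 with AGB1, and EIF4EBP1, an inhibitor of cap-dependent translation, had 0.20 with dTAG47 and 0.19 with AGB1. Between the compounds, 10 of the 38 were higher with dTAG47 (50% over all tested genes) and 0 were called. WARS, the tryptophan tRNA synthetase, had −0.14 for dTAG47 minus AGB1 (SE 0.06), with no overlap between libraries. KLHL24, a ubiquitin ligase adaptor, went the other way at 0.27 (SE 0.12), with overlapping libraries. SLC7A11, the cystine carrier that supplies glutathione synthesis, had −0.24 (SE 0.11), with overlapping libraries. Against DMSO, WARS had 0.01 with dTAG47 and 0.15 with AGB1, KLHL24 −0.08 with dTAG47 and −0.35 with AGB1. SLC7A11 had 0.14 with dTAG47 and 0.37 with AGB1 against DMSO, and none of these values was called.

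Among 22 bZIP partners and relatives of the 10 genes, 20 were tested, and 10 were positive with dTAG47 and 11 with AGB1, next to 49.7% of all tested genes. Of these 1 was called higher with dTAG47, next to 0.0328% of all genes, and 0 with AGB1, next to 0.0546%. JUN, a subunit of AP-1, was called with dTAG47 (0.32, SE 0.06, edgeR adjusted p = 0.0224) and had 0.27 with AGB1 (edgeR adjusted p = 0.0719). Between the compounds JUN differed by 0.05 (edgeR adjusted p = 0.999), so the call with dTAG47 is not shown to differ from the value with AGB1. JUND, another AP-1 subunit, had 0.41 with dTAG47 and 0.23 with AGB1, and FOSL2, a FOS relative, had 0.35 with dTAG47 and 0.33 with AGB1. TRIB1, a relative of TRIB3, had 0.09 with dTAG47 and 0.20 with AGB1. Between the compounds FOSL1, another FOS relative, had 0.47 (SE 0.27), JUND 0.18 and TRIB1 −0.10, with 0 called. Of 15 genes of the IRE1 and ATF6 arms of the unfolded protein response, the branches that act beside the eIF2 kinase PERK, 12 were positive with dTAG47 and 9 with AGB1, next to 49.7% of all tested genes, and 0 were called. HSPA5 (BiP), the main endoplasmic reticulum chaperone, had 0.0023 with dTAG47 and 0.02 with AGB1, and XBP1, the factor whose message IRE1 splices, had 0.05 with dTAG47 and 0.04 with AGB1. HSP90B1, another chaperone, had −0.13 with both compounds, its libraries below DMSO with each. MANF, a secreted stress protein, had 0.11 with dTAG47 and 0.13 with AGB1, its AGB1 libraries above DMSO. CALR, a calcium-binding chaperone, had 0.13 with dTAG47, its libraries above DMSO, and 0.03 with AGB1. HYOU1, a chaperone of the same compartment, had 0.02 with dTAG47 and −0.06 with AGB1, its AGB1 libraries below DMSO. Between the compounds DNAJB11 (0.17), CALR (0.10) and HYOU1 (0.08) had the smallest p, with 0 called.

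The profiles of CHAC1, ATF4 and DDIT3 over the 9 libraries were set against 10838 protein-coding genes of at least 5 CPM by Pearson's r of log2 CPM, as a description over 9 points that share groups and depth. The genes most like CHAC1 were FAM160A2 (r = 0.979), SLC35B1 (0.961), RHNO1 (0.953), HS1BP3 (0.941) and STK3 (0.940). Most like ATF4 were MRPL24 (0.964), NDUFV3 (0.953), CPSF4 (0.945), RHNO1 (0.942) and KLF4 (0.940). ATF4 was in place 29 for CHAC1 (r = 0.883) and TRIB3 in place 171 (r = 0.797). Further down for CHAC1 were ATF3 in place 687 (r = 0.659), CEBPB in place 1367 (0.536) and PPP1R15A in place 2209 (0.419). CEBPG was in place 2547 (0.375) and ATF5 in place 2759 (0.348). ASNS, below 5 CPM, was not ranked (r = 0.668 to CHAC1). DDIT3 was unlike CHAC1 and ATF4, with r = 0.112 to CHAC1 and −0.06 to ATF4. Its nearest profiles were CCDC80 (0.947), ZNF786 (0.888), UBE3D (0.885), KLC1 (0.876) and TNRC6C (0.871).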

How the data were processed

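Poly(A)-selected RNA was sequenced from 9 libraries, 3 per group. Each deposited file holds raw whole-number counts per gene for 1 library. The submitters' processing notes name HISAT2, DESeq2 and hg38. How reads were counted, whether by strand, and the versions of these tools are not stated in the labels. Gene models in the files match GENCODE release 29 for 58735 of 58735 genes. Groups and replicate numbers come from the sample titles.

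Genes were filtered with filterByExpr, which left 18319, and libraries were scaled by TMM. A quasi-likelihood fit with 1 term per group over the 9 libraries was made with edgeR 4.0.16 in R 4.3.3, with Benjamini-Hochberg adjustment over the 18319 genes. Standard errors were taken as the size of the log2 fold change over the root of its F statistic. Depth ran from 27964128 to 44803380 counts, and the common biological coefficient of variation was 11.0%. Intervals cover 95%, and reads carry no molecular identifiers. Counts were simulated for dTAG47 minus DMSO over 17859 genes. The fit recovered 32.8% of 67 true 1.25-fold changes, 59.7% of 67 at 1.5-fold and 84.8% of 66 at 2-fold. Beside these it made 13 false calls. No library repeated another of its group (chi-square over degrees of freedom 5.88 to 14.8).

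The 10 genes and the lists beside them were chosen with earlier results of these data known. From each other pathway list the text names, per comparison, the genes past the threshold and those among the 3 smallest unadjusted p, and the marker lists are given by their sums; EIF2AK3, HSPA5 and XBP1 were added after their values were seen. Likeness names the 5 genes with the highest r. Alternatives were DESeq2 1.42.0, voom from limma 3.58.1, scaling by upper quartiles, by DESeq2 size factors or by library size only, no count filter or 1 CPM in 3 libraries, the 2 groups compared alone, a replicate block, the GC trend removed by lowess (span 0.3) alone or in the blocked fit, and each library left out. Promoter windows are RefSeq's for GRCh38.p14.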

Additional observations from a re-analysis of the deposited data

How the results depend on the processing

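No setting turned the direction of CHAC1 against DMSO, and no scaling moved the median of all genes by more than 0.1 on the log2 scale. Genes called with dTAG47 against DMSO numbered 11 in the fit as reported, 47 under DESeq2, 43 without the count filter, 22 with the GC trend removed, 4 with the 2 groups alone and 2 to 20 with 1 library left out. With AGB1 they numbered 19 as reported, 81 under DESeq2, 67 without the filter, 48 with the GC trend removed, 51 with the GC trend removed and the replicate block, and 6 to 55 with 1 library left out. Between the compounds they numbered 0, 13 without the filter and 0 to 2 with 1 library left out. Leaving out both DMSO 1 and dTAG47 1, a setting chosen after seeing the data, gave 6, 29 and 2. Of the 10 genes, 1 was called in each comparison with DMSO, 0 under limma-voom and without both of those libraries, 0 to 1 with 1 library left out, 0 with dTAG47 and DMSO alone, and for AGB1 2 under DESeq2 and with the GC trend removed (CHAC1 and ATF3).

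No pairing by replicate number was visible: deviations of same-numbered libraries correlated at −0.161, 0.0726 and −0.0475 for dTAG47 and DMSO and at 0.0227, 0.0508 and −0.00746 for AGB1 and DMSO. Libraries of different number ran from −0.258 to 0.270 for dTAG47 and DMSO and from −0.0555 to 0.0360 for AGB1 and DMSO. These values cannot tell whether samples were prepared in pairs. With the replicate block the edgeR adjusted p of CHAC1 was 0.0353 with dTAG47 and 0.0202 with AGB1, and no other of the 10 genes was called.

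Of 630 values of the 10 genes under alternatives, 34 changed sign, none of them called. Without both libraries CEBPB (−0.11) and ASNS (−0.33) turned negative with dTAG47, ATF5 (−0.00709) with AGB1, and TRIB3 (−0.0515) and CEBPG (0.0238) turned between the compounds. ATF5 with AGB1 was −0.00304 under limma-voom, −0.00298 with library sizes alone, −0.00375 with the GC trend removed and −0.00437 with the block as well. Between the compounds CEBPG was 0.00140, 0.00158 and 0.00186 with library sizes alone, the GC trend removed and the block as well, and TRIB3 −0.00234 and −0.00215 under the last 2. With 1 library left out, dTAG47 minus DMSO ran from −0.0236 to 0.143 for CEBPB, −0.138 to 0.395 for ASNS and −0.0352 to 0.193 for DDIT3. AGB1 minus DMSO ran from −0.0789 to 0.0734 for ATF5 and −0.115 to 0.155 for DDIT3. For dTAG47 minus AGB1 it ran from −0.115 to 0.0675 for CHAC1, −0.0524 to 0.0852 for TRIB3, −0.0610 to 0.0225 for CEBPG, −0.0684 to 0.196 for DDIT3 and −0.333 to 0.0440 for ASNS. CHAC1, DDIT3 and ASNS had the fewest counts of the 10 genes, and at 3 libraries a group their intervals are the widest. The cause of lost calls was not tested.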
